A study of Caenorhabditis elegans with 4 samples.

Results

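Chromosome III of Caenorhabditis elegans carried 810 of the 5266 peaks called in 2 chromatin immunoprecipitation sequencing (ChIP-seq) libraries of COH-1. These are sums over both libraries, so a site called in both is counted in each. Replicate 1 held 431 of its 2964 peaks on III, and replicate 2 held 379 of its 2302. Every peak assigned to III in either list was taken, and the lists were kept apart. The worms were adult hermaphrodites with the genotype fem-2(b245)III, so that the mutation borne by all libraries of the study lies on the chromosome described here. They were grown at 20 °C and carried a germline, and whole animals were ground, so the peaks do not separate tissues or cell types. The labels name the stage as young adult, while their growth protocol describes gravid adults. The study comprised 2 ChIP libraries made with a polyclonal rabbit antibody to COH-1 and 2 libraries of input DNA. Input DNA was not analysed here, so the peaks have no control value beside them. Nothing in the labels says that the libraries came from separate cultures, and the spread between the lists (n = 2) may be technical. The names under which both lists were deposited hold tags that the labels do not explain, and each list was taken as the sample it was deposited with.

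COH-1 belongs to the kleisins, which close the ring of the cohesin complex. Cohesin encircles DNA, holds sister chromatids together and forms chromatin loops, and its loading and position differ along chromosomes. In this worm, other kleisins serve meiosis, and COH-1 is known mainly from somatic cells. The chromosomes of the worm are holocentric, with no single centromere. Their autosomes have gene-dense centres with little recombination, and arms that recombine more and hold more repeats. The gene fem-2 encodes a protein phosphatase of the pathway that promotes male development and sperm formation.

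Positions are those of WormBase build WS220, as the lists give them. The length of III was taken as 13768915 bp, the end of the last peak in either list. The centre was the middle 33.3% of it, from 4589639 to 9179276. The left arm lay before it and the right arm after it, each 4.59 Mb long. Shared peaks are those with an overlap of 1 bp or more with the other list. Joining each chain of peaks linked by such overlaps gave 189 shared intervals on III. The lists give no read counts, so the depth behind a peak is unknown. Gene annotation of this build was not used, so each site is named by position alone.

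COH-1 peaks were denser on III than on the other autosomes in both lists. Replicate 1 had 31.3 peaks per Mb on III and replicate 2 had 27.5 per Mb, a mean of 29.4 ± 2.67 (SD, n = 2). The other 4 autosomes together had 25.4 per Mb in replicate 1 and 21.2 per Mb in replicate 2. No other autosome reached the value of III in either list: the highest was 30.0 per Mb on I in replicate 1 and 23.3 per Mb on II in replicate 2. The ratio of III to the other autosomes was 1.23 in replicate 1 (exact 95% interval 1.11 to 1.37; exact binomial test, two-sided, adjusted p = 0.00032). It was 1.30 in replicate 2 (1.16 to 1.45; exact binomial test, adjusted p = 5.0e-05). Adjusted p-values here and in the other comparisons between autosomes follow Benjamini-Hochberg over the 5 autosomes, each set against the rest. III was not alone in departing from the rest. V was sparser, with ratios of 0.71 and 0.81 (exact binomial test, adjusted p = 8.6e-10 and 0.00030), and lowers the value that III was set against. I was denser in replicate 1, at 1.17 (exact binomial test, adjusted p = 0.0049), but not in replicate 2, at 0.96 (adjusted p = 0.66). For shared intervals the ratio was 1.27 (1.08 to 1.49; exact binomial test, adjusted p = 0.0092), with 13.7 intervals per Mb on III and 10.8 on the other autosomes. With only the stronger 50% of each list by score, the ratio of intervals was 1.26 and no longer passed the threshold of 0.05 (exact binomial test, adjusted p = 0.098).

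These tests count every peak as independent, while peaks on III lay in runs. After peaks of a list no more than 10 kb apart were merged, the ratio was 1.31 in replicate 1 (exact binomial test, adjusted p = 0.0040) and 1.36 in replicate 2 (adjusted p = 0.0078). Merged shared intervals gave 1.44 (exact binomial test, adjusted p = 0.0025). The density of III thus stood above the other autosomes also when runs were counted once.

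The peaks of III covered 1274 kb in replicate 1 and 1045 kb in replicate 2. Per length this was 92.5 and 75.9 kb per Mb, with a mean of 84.2 ± 11.7 (SD, n = 2). Among the other autosomes, covered length ranged from 59.0 to 81.3 kb per Mb in replicate 1 and from 49.2 to 60.5 in replicate 2. X had 102.9 and 60.3 kb per Mb, above III in replicate 1 and below it in replicate 2. On III, 696.6 kb were covered in both lists, which is 54.7% of the covered length of replicate 1 and 66.7% of that of replicate 2.

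**Figure D1:**
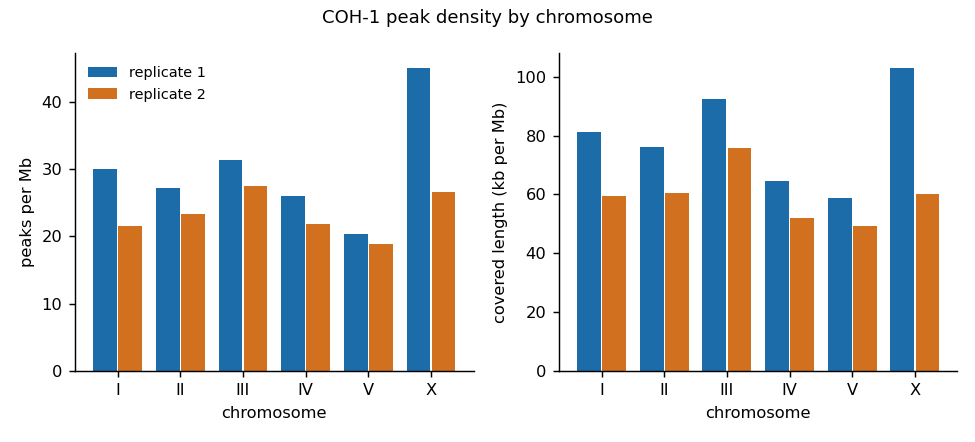
Peaks per Mb (left) and covered length in kb per Mb (right) for each chromosome, with 1 bar per ChIP list. In both lists III stands above the other 4 autosomes, at 31.3 and 27.5 peaks per Mb, while X is above III only in replicate 1 by either measure.

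No difference in overlap between III and the other autosomes was detected. Of the 431 replicate 1 peaks, 231 were shared, or 53.6% (exact 95% interval 48.8% to 58.4%), where 48.2% of all replicate 1 peaks of the genome were shared. Of the 379 replicate 2 peaks, 260 were shared, or 68.6% (63.7% to 73.2%), where the genome gave 70.2%. The other 4 autosomes stood at 51.4% in replicate 1 and 68.6% in replicate 2. The comparison did not pass in either list (Fisher's exact test, two-sided, adjusted p = 0.70 and 1). X gave 38.3% and 76.5%.

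The 200 unshared peaks of replicate 1 and the 119 of replicate 2 were narrow, and their central shares differed. Their median widths were 1241 bp and 1146 bp. In replicate 1, 50% of the unshared peaks had their midpoint in the centre, close to the 46.2% of all its peaks on III. In replicate 2, 21.8% did, where all its peaks on III gave 37.7%. The median distance to the nearest peak of the other list was 10.7 kb for replicate 1 and 3.13 kb for replicate 2. Only 27 and 29 of them, in that order, lay within 1 kb of such a peak.

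The strongest peaks of III were the most often shared. Scores are those the authors' caller gave and were ranked within each whole list. Among scores in the lowest 25% of replicate 1, 26 of 102 peaks on III were shared, or 25.5% (exact 95% interval 17.4% to 35.1%), and among the highest 25% they were 95 of 115, or 82.6% (74.4% to 89.0%). For replicate 2 these shares were 42.4% (32.5% to 52.8%) of 99 peaks and 90.8% (83.8% to 95.5%) of 109. The classes between lay in order, with shares of 38.3% and 64.5% in replicate 1 and of 59.7% and 77.7% in replicate 2. Stronger classes were also wider, which gives more length for an overlap. Median widths of the lowest and highest classes were 1042 and 4507 bp in replicate 1, and 1005 and 4651 bp in replicate 2. Shares by score class are not given here for other chromosomes, so this order does not set III apart.

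Along III, COH-1 peaks were most frequent in the centre in replicate 1, and the left arm was the emptiest region in both lists. Replicate 1 had 96 peaks on the left arm, 199 in the centre and 136 on the right arm. Replicate 2 had 100, 143 and 136. The arms therefore held nearly the same numbers in both lists, and the lists differed mainly in the centre. Per length, the left arm had 20.9 and 21.8 peaks per Mb (mean 21.4 ± 0.62, SD, n = 2), and the right arm 29.6 in each list. The centre had 43.4 and 31.2 peaks per Mb (mean 37.3 ± 8.63, SD, n = 2).

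The centre took 46.2% of the replicate 1 peaks (exact 95% interval 41.4% to 51.0%), more than the 33.3% of even placement (exact binomial test, two-sided, adjusted p = 3.8e-07 over the 10 tests made within III). In replicate 2 it took 37.7% (32.8% to 42.8%), and the excess did not pass (exact binomial test, adjusted p = 0.090). When the middle 50% was taken as the centre, replicate 2 had 61.7% of its peaks there and did pass (exact binomial test, adjusted p = 1.4e-05). Among the shared intervals 82 of 189 lay in the centre, or 43.4% (36.2% to 50.8%; exact binomial test, adjusted p = 0.014). After merging within 10 kb, the centre held 42.5% of the replicate 1 sites (exact binomial test, adjusted p = 0.11) and 42.5% of the interval sites (adjusted p = 0.16). Neither passed after merging, with fewer sites tested.

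The concentration in the centre was weaker on III than on the other autosomes as a whole in both lists as deposited, though not under every other setting tried. The other 4 autosomes had 53.0% of their replicate 1 peaks and 51.3% of their replicate 2 peaks in the centre. III was lower by a test made after its values were seen (Fisher's exact test, two-sided, adjusted p = 0.019 in replicate 1 and 1.4e-05 in replicate 2). A low central share was not particular to III: IV had 48.1% and 44.2% in the lists and I had 48.3% in replicate 1, while II and V had 53.1% or more in both lists. For shared intervals, 43.4% on III stood against 51.6% on the other 4 together and 44.5% on IV alone, and the former difference did not pass (Fisher's exact test, adjusted p = 0.14). After merging within 10 kb the shares on III were 42.5% and 40.3%, against 51.3% and 50.4% on the other autosomes, and neither passed (Fisher's exact test, adjusted p = 0.098 and 0.089). In replicate 1 the difference was not seen with the stronger 50% of the list, at 51.4% against 51.6% (Fisher's exact test, adjusted p = 1), or with the middle 50% as the centre, at 70.5% against 71.9% (adjusted p = 0.59).

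The arms of III were unequal. Of the peaks on arms, 41.4% lay on the left in replicate 1 (exact 95% interval 35.0% to 48.0%) and 42.4% in replicate 2 (36.0% to 49.0%), against 50% for equal arms (exact binomial test, two-sided, adjusted p = 0.021 and 0.038). Of the 107 shared intervals on arms, 39 lay on the left, or 36.4% (27.4% to 46.3%; exact binomial test, adjusted p = 0.016). Merging within 10 kb gave 39.8% of the replicate 1 sites on the left (exact binomial test, adjusted p = 0.16) and 40.0% of the interval sites (adjusted p = 0.23). In replicate 2 the inequality disappeared on merging, with 50.6% on the left (exact binomial test, adjusted p = 1). The stronger 50% of replicate 1 gave 40.7% on the left and did not pass (exact binomial test, adjusted p = 0.096).

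Each arm was divided at its middle after the values were seen, and the outer part of the left arm held the fewest peaks. The outer 2.29 Mb of the left arm held 27 peaks in replicate 1 and 31 in replicate 2, and its inner part held 69 in each. On the right arm the outer part held 61 and 52, and the inner part 75 and 84. Shared intervals numbered 12 in the outer and 27 in the inner part of the left arm, against 29 and 39 on the right, so the left arm had fewer in both parts. Covered length in the outer left part was 32.4 and 43.4 kb per Mb, the lowest of the 6 equal parts of III in both lists. In the left part of the centre it was 153.6 and 97.5 kb per Mb, the highest in both lists.

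In bins of 500 kb, the peak numbers of both lists followed each other along III, with Spearman's rho = 0.81 over 28 bins, which are not independent samples. Replicate 1 had no peak from 2500001 to 3000000, where replicate 2 had 4. Replicate 2 was low from 4500001 to 5000000, with 4 peaks where replicate 1 had 16. The bin from 5500001 to 6000000 had the most replicate 1 peaks, 39 against 22 in replicate 2, and the longest cover, 161.8 kb against 85.4 kb. The bins with the most shared intervals were that bin and its left neighbour from 5000001 to 5500000, with 15 each, and the bin from 8500001 to 9000000, with 12. The neighbour had 23 peaks in each list.

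**Figure D2:**
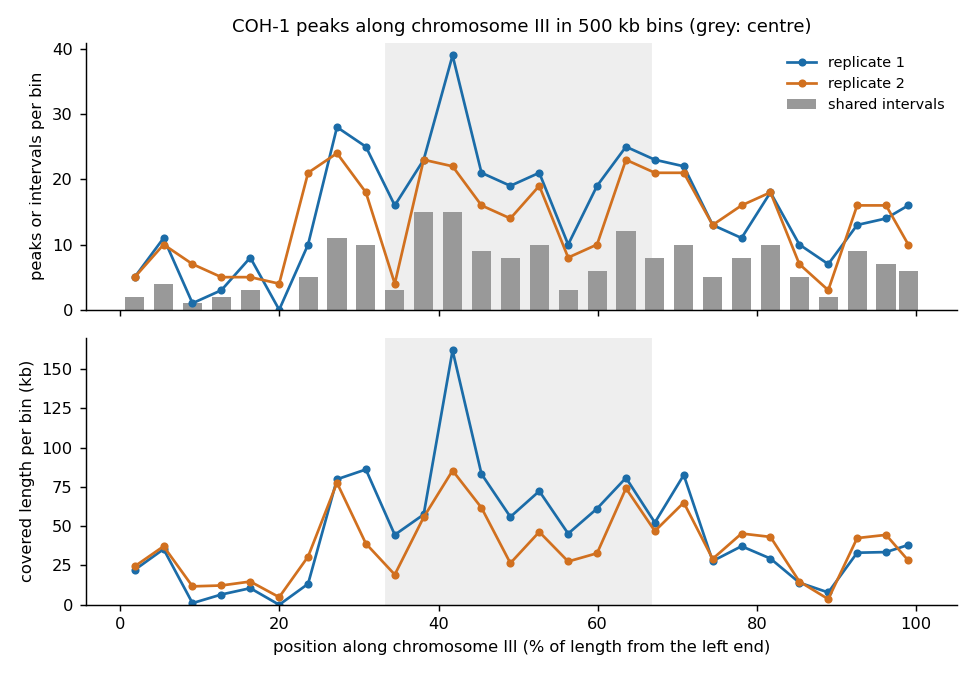
Number of peaks and shared intervals (top) and covered length in kb (bottom) in 500 kb bins along III, plotted against position as a percentage of the length from the left end, with the centre shaded grey. Both lists are low over the outer left arm, and replicate 1 rises above replicate 2 in most of the centre, up to 39 peaks in 1 bin. The last bin holds only 269 kb before the last peak.

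Overlap in the centre differed between the lists in a way that the arms did not show. This is not separate from the difference in central counts and cover. The shared central peaks numbered 99 and 117 in replicates 1 and 2, out of 199 and 143. Replicate 1 also covered 145.7 kb per Mb of the centre, against 94.4 in replicate 2. In replicate 2, 117 of the 143 central peaks were shared, or 81.8% (exact 95% interval 74.5% to 87.8%), against 60.6% on both arms together (Fisher's exact test, two-sided, adjusted p = 6.5e-05). In replicate 1, 99 of the 199 central peaks were shared, or 49.7% (42.6% to 56.9%), against 56.9% on the arms, a difference that did not pass (Fisher's exact test, adjusted p = 0.16). With the middle 50% as the centre, the replicate 1 difference, centre minus outside, was -14.4 percentage points and passed (Fisher's exact test, adjusted p = 0.0099). The replicate 2 difference of 21.2 points fell to 1.28 points when midpoints within 500 bp were asked for (Fisher's exact test, adjusted p = 0.81) and to 10.4 points after merging within 10 kb (adjusted p = 0.26). It still passed, at 13.7 points, with a reciprocal overlap of 50% (Fisher's exact test, adjusted p = 0.019). With the middle 50% as the centre it was 22.9 points (Fisher's exact test, adjusted p = 1.4e-05). The stronger 50% of each list gave 23.4 points (Fisher's exact test, adjusted p = 0.0019). The left arm had 50% and 55% shared peaks in the lists, and the right arm 61.8% and 64.7%. Measured in bases, 48.9% of the central cover of replicate 1 was also covered in replicate 2, and 75.5% of that of replicate 2 in replicate 1.

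**Figure D3:**
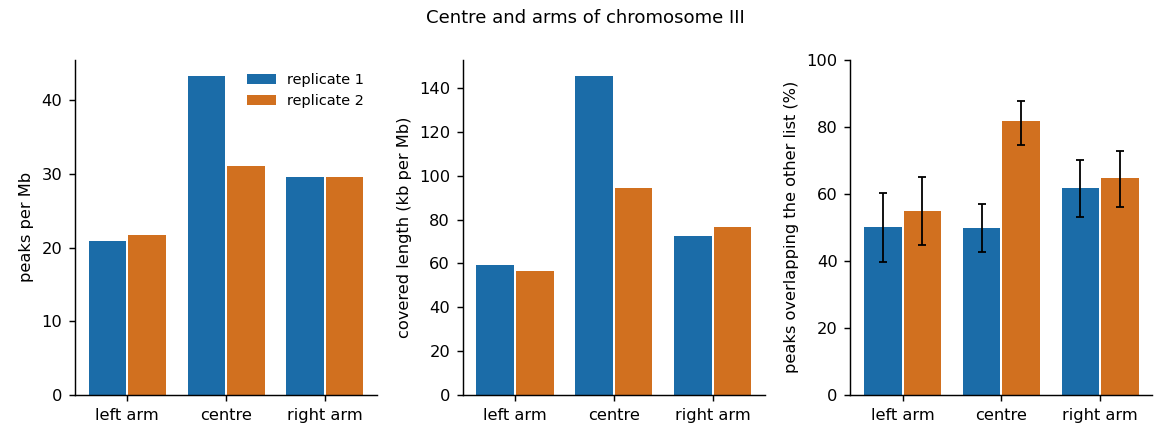
Peaks per Mb (left), covered length in kb per Mb (middle) and the share of peaks that overlap the other list (right) for the left arm, centre and right arm of III in each list. Error bars are exact 95% binomial intervals and cover counting error only. The lists are close on both arms and part in the centre, where replicate 1 has 43.4 peaks per Mb with 49.7% shared and replicate 2 has 31.2 with 81.8% shared. The share is not separate from the number of peaks, which is its denominator.

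By their medians, peaks were also wider and stronger in the centre. Central peaks had median widths of 2176 and 2032 bp in replicates 1 and 2 (mean 2104 ± 102 bp, SD, n = 2). On the left arm it was 1462.5 and 1368 bp (mean 1415 ± 66.8), and on the right arm 1503 and 1662.5 bp (mean 1583 ± 113). The median peak of the centre stood at percentile 59.3 of all scores in replicate 1 and 58.9 in replicate 2. On the left arm these percentiles were 44.1 and 46.0, and on the right arm 48.3 and 56.3. Score and width went together on III, with rho = 0.84 over 431 peaks in replicate 1 and 0.87 over 379 in replicate 2, so they are not separate evidence. In replicate 2, 28 peaks of III scored 3100 or more, of which 13 were central, 9 on the left arm and 6 on the right. In replicate 1 a single peak of III, on the right arm, reached 3100.

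Wide peaks, of 5 kb or more, held a large part of the cover. There were 57 in replicate 1 and 54 in replicate 2, or 13.2% and 14.2% of the peaks on III, where the genome gave 11.1% and 10.9%. The other 4 autosomes had 12.0% and 10.9%, and no difference from III was detected (Fisher's exact test, two-sided, adjusted p = 0.85 and 0.18). Wide peaks made up 45.3% of the covered length of III in replicate 1 and 40.3% in replicate 2. This lay within the range of the other autosomes, 36.7% to 47.8% and 28.5% to 41.5%. In the centre 17.1% of replicate 1 peaks were wide against 9.91% on the arms (Fisher's exact test, two-sided, adjusted p = 0.046). In replicate 2, 16.1% of central and 13.1% of arm peaks were wide (Fisher's exact test, adjusted p = 0.45). With a limit of 3 kb, the centre exceeded the arms by 12.8 points in each list (Fisher's exact test, adjusted p = 0.0094 and 0.015). With a limit of 10 kb the replicate 1 difference was 1.72 points (Fisher's exact test, adjusted p = 0.57), and after joining peaks within 1 kb it was 11.5 points (adjusted p = 0.056).

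Almost all wide peaks met a peak of the other list, but the lists cut broad regions differently. Of the wide peaks, 52 in replicate 1 (91.2%) and 50 in replicate 2 (92.6%) were shared, against 47.9% and 64.6% of the narrower ones. A wide peak has more length with which to overlap another. The shared part of the wide peaks is not given here for other chromosomes, so these values do not set III apart. Only 31 of the 57 in replicate 1 overlapped a peak that was also wide in replicate 2, and 40 of the 54 in replicate 2 did so in return. In replicate 1, 14 wide peaks overlapped 3 or more replicate 2 peaks, while in replicate 2 a single wide peak did so. Peaks of 10 kb or more numbered 22 in replicate 1 and 7 in replicate 2.

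The widest peak of III in both lists lay at the same place in the centre. In replicate 1 it ran from 5930141 to 5955515 (25.4 kb, score 268), and in replicate 2 from 5930716 to 5949213 (18.5 kb, score 3100). A second replicate 2 peak, from 5949439 to 5955443, filled the remainder after a gap of 225 bp. The next widest of replicate 1, from 7715823 to 7739381 (23.6 kb), had a score of only 83.96 and covered 4 replicate 2 peaks in whole or in part. The strongest of these, from 7715075 to 7722966, scored 3023. The next, from 4490656 to 4510544 on the left arm (19.9 kb, score 136), overlapped 1 replicate 2 peak. That peak took up its right part, from 4503381 to 4510372, with a score of 3151. In replicate 2, the next widest ran from 3949248 to 3964569 on the left arm (15.3 kb, score 361) and from 12605589 to 12620724 on the right arm (15.1 kb, score 3100). The last of these matched a replicate 1 peak from 12605216 to 12620031 with a score of 2536. At the first 3 sites the borders or the ranks of the scores differed between the lists. Their best score percentiles in replicates 1 and 2 were 77.1 and 96.7, 33.8 and 93.6, and 55.4 and 99.8, in that order. Raw scores are not on a known common scale.

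**Figure D4:**
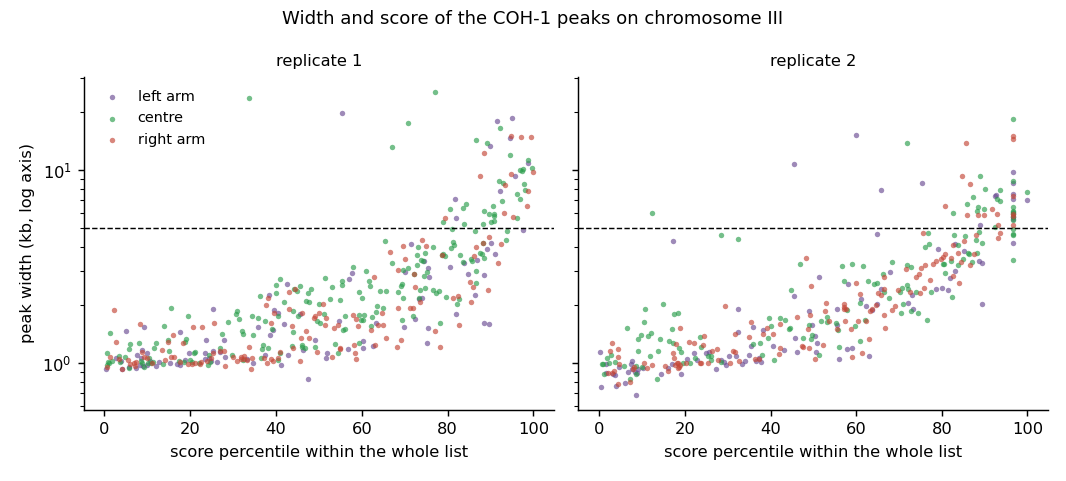
Width in kb (log axis) of each peak on III against the percentile of its score within the whole list, coloured by region, for replicate 1 (left) and replicate 2 (right). The dashed line marks 5 kb. Width rises with score in both lists (rho = 0.84 and 0.87), with a few wide peaks of low score, and the column of points at the right of replicate 2 is the tied score of 3100.

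Where both lists had a single peak, median widths were similar, but the peaks of a pair often differed in width and borders. Of the 189 shared intervals, 128 held 1 peak of each list, 32 held more peaks of replicate 2 and 13 more of replicate 1. In the 128, the median distance between midpoints was 325 bp, and 77 pairs lay within 500 bp. Their median widths were 1757 bp (replicate 1) and 1668.5 bp (replicate 2), and the replicate 2 peak was the wider in 65 of them and the narrower in 63. The width of the replicate 2 peak over that of its replicate 1 partner had quartiles of 0.70, 1.01 and 1.37. In 73 pairs one peak lay wholly within the other, and no pair had identical borders. The best scores of the lists were related by rho = 0.41 over the 189 intervals and 0.18 over the 128, as a description.

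The 10 strongest shared intervals of III by mean percentile were spread over all regions, with 5 in the centre, 3 on the right arm and 2 on the left. They were 4.63 to 20.9 kb wide, and all but 1 exceeded 10 kb. All reached at least 3100 in replicate 2, so the order among them rests mostly on replicate 1. The first, from 13051565 to 13067346 near the right end, scored 3100 in both lists. Within it replicate 1 had a peak of 9.75 kb and a weaker one of 2.07 kb, and replicate 2 had one of 14.6 kb followed by one of 0.78 kb with a score of 58.3.

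The second interval lay from 12604214 to 12620724, with scores of 2536 and 3100. The third, from 10713138 to 10724923, scored 1662 and 3100. On the left arm the first of the 2 lay from 882632 to 896285, with scores of 1656 and 3100. It is a strong site within the sparse outer part of that arm. The other, from 3785998 to 3806887, was the widest of the 10 and was cut into 2 peaks in replicate 1 and 5 in replicate 2. Those 5 were separated by gaps of 2 to 124 bp and had scores from 52.9 to 3100.

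The central intervals among the 10 showed the same mix of single and divided peaks. The highest ranked of them lay from 5497253 to 5509888, with scores of 1643 and 3100. It was followed by those from 7152137 to 7170241 and from 6160513 to 6179016, with replicate 1 scores of 1459 and 1284. The interval from 8735775 to 8740407 was the narrowest of the 10 and held 1 peak of each list, of 4338 and 4633 bp. The last, from 8649802 to 8663686, was a single peak of 13.9 kb with a score of 521 in replicate 1. In replicate 2 it was a pair of peaks 29 bp apart, with scores of 3197 and 3100.

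The strongest peaks without a partner lay at very different distances from the other list. In replicate 1 the 3 strongest lay from 5830845 to 5847469 (score 642), from 3979600 to 3983285 (score 588) and from 8288211 to 8294722 (score 572). The first of these was 16.6 kb wide. Their distances to the nearest replicate 2 peak were 985 bp, 151 bp and 3.14 kb. In replicate 2 the 3 strongest lay from 8790498 to 8796466 (score 3100), from 9258983 to 9263438 (score 2698) and from 1245154 to 1247185 (score 2067). The first was 257 bp and the second 3.39 kb from a replicate 1 peak. The third was 29.7 kb away, in the sparse part of the left arm.

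Peaks on III came in runs separated by long empty stretches. The quartiles of the gaps between neighbouring peaks of a list were 0.51, 4.76 and 32.4 kb in replicate 1, and in replicate 2 they were 0.41, 2.31 and 39.3 kb. Of all gaps, 30.9% in replicate 1 and 37.0% in replicate 2 were under 1 kb, and 31 and 41 gaps reached 100 kb. A neighbour within 10 kb between midpoints was found for 79.8% of peaks in replicate 1 and 85.5% in replicate 2 (mean 82.7% ± 4.01, SD, n = 2), and for 57.1% of shared intervals. The other autosomes had 77.5% to 85.9% in replicate 1 and 81.8% to 87.5% in replicate 2, so III lay within their range.

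The spacing by region depended on the distance asked for. A neighbour within 10 kb was found for 79.2% and 79.0% of peaks on the left arm and for 81.9% and 83.2% in the centre. On the right arm it was found for 77.2% in replicate 1 (exact 95% interval 69.2% to 84.0%) and 92.6% in replicate 2 (86.9% to 96.4%), with 136 peaks in each. With neighbours within 5 kb, the shares of replicates 1 and 2 were 51.0% and 58% on the left arm, 52.3% and 57.3% in the centre, and 64.7% and 71.3% on the right arm. At that distance the lists were no further apart on the right arm than on the left. The median gap was shorter in replicate 2 in every region, at 4.77 and 3.67 kb on the left arm, 4.39 and 2.13 kb in the centre, and 4.92 and 1.86 kb on the right arm.

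**Figure D5:**
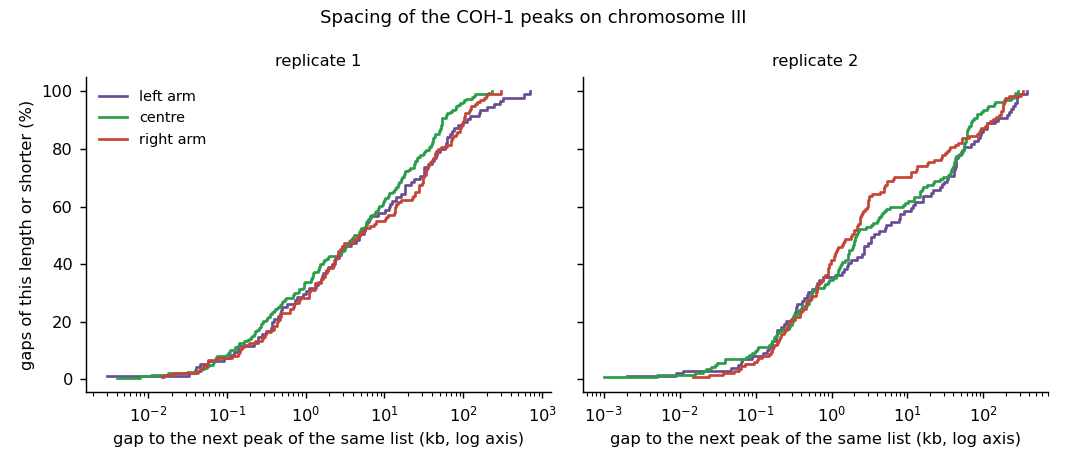
Share of gaps of a given length or shorter, in percent, against the gap to the next peak of the same list in kb (log axis), for replicate 1 (left) and replicate 2 (right) and for peaks of the same region. The regions run close together in replicate 1. In replicate 2 the right arm rises earlier, with a median gap of 1.86 kb, and the longest gaps of both lists are on the left arm.

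When shared intervals no more than 10 kb apart were joined, 113 sites remained on III. A single interval made up 66 of them, and 16 had 3 or more, with 61 intervals between them (32.3% of all on III). The sites with the most intervals lay on the right arm, from 11181732 to 11206155 and from 12549244 to 12584185, with 6 each. In the first, replicate 2 had 2 peaks at 3100 among 6 peaks, and replicate 1 had 8 peaks with scores from 54.1 to 418. A site of 5 intervals in the centre, from 5367655 to 5377637, was the most compact of these. It held 5 peaks of 1.08 to 1.68 kb in replicate 1 and 5 of 1.26 to 1.82 kb in replicate 2, lying side by side over 9.98 kb. The other site of 5 lay from 8718483 to 8750168.

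The emptiest stretches of III were on the left arm. Outside the peaks of both lists, 31 stretches reached 100 kb, of which 13 were centred on the left arm, 6 in the centre and 12 on the right arm. Together they took up 2584, 913 and 1864 kb. The longest ran from 1303485 to 1681971 (378 kb), followed by 12624485 to 12919471 on the right arm (295 kb) and 2176096 to 2464360 (288 kb). The longest stretch of III was shorter than that of any other chromosome, where it ranged from 442 kb on X to 849 kb on V. At the left end, the first replicate 2 peak started at 19121 and the first replicate 1 peak at 66722. At the right end, the last replicate 2 peak ended at 13762408 and the last replicate 1 peak at 13768915.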

How the data were processed

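The 2 ChIP libraries of COH-1 were used, 1 list each, and grouped by the sample titles. The submitters' processing notes name BWA and ce10. The headers of the deposited lists give WormBase WS220, and their source column names MACS as the caller. Each list belongs to a single library, so replicates were not pooled. The threshold, control, filters and versions of calling were not given in the sources used here. No header names a scale for the authors' score. It began at 50.04 (replicate 1) and 50.07 (replicate 2), and peaks were ranked and filtered by it only inside their own list. The deposited start and end of each peak were used as given, counted from 1.

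Values were computed in Python 3.11.15 with scipy 1.17.1, pandas 2.3.3, numpy 2.4.6 and, for plots, matplotlib 3.10.9. Overlaps needed 1 bp. Counts on III were set against its share of autosomal length (exact binomial tests) and shares against the other 4 autosomes or the arms (Fisher's exact tests), all two-sided with a threshold of 0.05. Benjamini-Hochberg adjustment ran over the 5 autosomes within a list, or over the 10 tests made within III. Shares have 95% Clopper-Pearson (exact) intervals, which hold counting error alone. All of these count peaks as independent, which runs of peaks break, so results are also given after merging within 10 kb. Correlations are descriptions without a test.

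The named regions follow a rule: the 10 shared intervals with the best mean percentile, in each list the 3 strongest unshared and the 3 widest peaks, the 3 merged sites with the most intervals, the 3 longest stretches without a peak, the 3 fullest bins of 500 kb, and the first and last peaks. Ties went to the lower start, and the other site of 5 intervals and the low bins were picked after their values were seen. The members, the rule and the tests were chosen with earlier results of these data known. The test of the centre share between autosomes, and the division of the arms, were added after seeing the data. The computations were tested on simulated lists with planted overlap, density and centre share. Simulated peaks were placed independently, and the second list was a shifted part of the first. The effect of runs of peaks on the tests was therefore not covered.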

Additional observations from a re-analysis of the deposited data

How the results depend on the processing

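No paired analysis was possible because only ChIP lists were used, and the input samples of the same numbers gave no values. Of 76 alternatives over 24 results, 51 were counted as unchanged, meaning the same direction and call where a test was made. Among them are the settings with either list left out, which have no test. With 2 lists, each list always lies within the SD of their mean, so these settings could not count as changed. The cause of the changes below was not tested, beyond the smaller numbers that merging and the stronger 50% leave, and adjusted p-values are from the exact tests named in the report. Peaks merged within 10 kb put 42.5% of the replicate 1 sites and 42.5% of the interval sites in the centre (adjusted exact p = 0.11 and 0.16), and against the other autosomes the 42.5% and the 40.3% of replicate 2 did not pass (0.098 and 0.089). The left share of the arms became 39.8% in replicate 1, 40.0% for intervals and 50.6% in replicate 2, the last on the other side of equality. The replicate 2 overlap difference between centre and arms became 10.4 points, and its overlap on III 81.3% against 78.1% elsewhere, a change of sign. The stronger 50% of each list gave an interval density ratio of 1.26, a left share of 40.7% in replicate 1, a centre share of 51.4% in replicate 1 against 51.6% elsewhere, a mean cover of 64.7 kb per Mb, and a replicate 2 overlap of 68.97% against 68.90% elsewhere, again a change of sign. With the middle 50% as centre, 61.7% of replicate 2 peaks were central and passed, the replicate 1 overlap difference of -14.4 points passed, and the 70.5% of replicate 1 against other autosomes did not. With midpoints within 500 bp the replicate 2 overlap difference was 1.28 points, and a reciprocal overlap of 50% turned that of replicate 1 to 0.98 points. At 10 kb or more, wide peaks were 1.85% of replicate 2 on III against 2.75% elsewhere, and centre minus arms was 1.72 points in replicate 1 and -0.72 in replicate 2. At 3 kb that difference was 12.8 points in replicate 2 and passed, and joining within 1 kb gave 11.5 points in replicate 1, which did not. Neighbours within 5 kb were found for 59.2% of peaks. With either list left out, the density ratio ranged from 1.23 to 1.30, the centre share from 37.7% to 46.2%, the cover from 75.9 to 92.5 kb per Mb, and the share with a neighbour within 10 kb from 79.8% to 85.5%. Depth is unknown, so what it limits cannot be given.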
